A study of Mus musculus with 6 samples.

Results

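Reelin signalling was described through 4 genes of the 23038 listed for each library. They are Reln, which encodes the secreted ligand reelin, Vldlr and Lrp8, which encode its receptors, and Dab1, which encodes the adaptor inside the receiving cell. The set was chosen by the fall of Reln in the siQk libraries, so the difference of Reln between the groups is given as a description with no test. The other members belong to the set by their function, and their differences were tested in 1 fit over all genes tested. All 4 members passed the filter on low values, an average logCPM over 0, which 12505 of the listed genes passed.

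The data are poly-A RNA-seq of mouse oligodendrocyte precursor cells (mOPCs), primary cells that were immunopanned from mouse embryos at embryonic day 14.5. The study used mOPCs as glial cells to set beside motor neurons, and no genotype or strain is given in the sources used here. Of the 6 libraries, 3 came from mOPCs transfected with control siRNA (siNC) and 3 from mOPCs transfected with siRNA for Qk (siQk). All cultures were collected 72 h after transfection, and the siRNAs against Qk had 3 different sequences, with the sequence used for each library not stated. Qk encodes the RNA-binding protein Quaking, whose isoforms act in splicing and in the stability of mRNAs in oligodendrocytes. Each library is a bulk sample, so fewer cells of a type and less RNA per cell cannot be told apart.

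Reelin is a large extracellular glycoprotein that is best known from Cajal-Retzius cells, which guide the layering of the cerebral cortex. It binds VLDLR and LRP8 (also called ApoER2), members of a family of lipoprotein receptors. Binding leads to phosphorylation of DAB1, which docks on the receptor tails, by the Src family kinases FYN and SRC. Phosphorylated DAB1 recruits PI3K and the CRK adaptors and is then degraded through a CUL5 ubiquitin ligase.

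Library depth ranged from 58166490 tags (siNC replicate 1) to 141045937 tags (siQk replicate 1). The Qk transcript, the target of the siRNAs, was at 209, 206 and 163 RPKM (tags scaled by exon length and by the library total) in the siNC libraries, and at 51.3, 76.6 and 36.2 RPKM in the siQk libraries. Every siQk library was below every siNC library, with a log2 fold change (siQk over siNC) of -1.98 (SE 0.28, edgeR FDR = 0.00311, n = 3 per group). The quasi-likelihood test of edgeR was used, and a gene counted as called where P was below 0.01 with an FDR below 0.1. By that rule 31.0% of the tested genes were called, 13.8% as higher and 17.2% as lower in siQk, and the RPKM ranges of the groups did not overlap for 58.3%. The share of tags from Rn45s, a ribosomal RNA precursor, was 3.11% in siNC replicate 1 and 0.169% to 0.389% in the other libraries.

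The cells were checked against marker lists. The 10 OPC markers summed to 1033 to 1075 RPKM in siNC and to 1196 to 1411 RPKM in siQk. Of these, 4 (Cspg4, Olig1, Olig2 and Nkx2-2) were called higher, where 13.8% of all tested genes were. Lhfpl3 was called lower, as were 17.2% of all tested genes, and 5 were not called. The 10 myelin and mature oligodendrocyte markers summed to 3514 to 6126 RPKM in siNC, with siNC replicate 3 lowest. In siQk they summed to 1515 to 2278 RPKM, and 8 of the 10 were called lower (80%, beside 17.2% of all tested genes). The siNC cultures thus held myelin transcripts at high levels beside the OPC markers.

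Reln lies on mouse chromosome 5 (chr5:21884454-22344702, minus strand, GRCm38, GENCODE M21), Vldlr at chr19:27216484-27254231 on the plus strand, Lrp8 at chr4:107802261-107876840 on the plus strand and Dab1 at chr4:103619359-104744844 on the plus strand. Reln and Dab1 are long genes, spanning 460249 and 1125486 bases. The exon length in the deposited files was 19288 bases for Reln, 7996 for Vldlr, 9961 for Lrp8 and 5893 for Dab1. An antisense gene on the opposite strand, Gm10475, shares 246 exon bases with Reln, and the library kit does not mark strand, so tags in those bases cannot be told apart. No exon bases of Vldlr, Lrp8 or Dab1 are shared with another annotated gene.

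Quaking proteins bind RNA at a core of the letters ACTAAC or ACTAAT (with U for T in RNA). Both letter runs were searched on the sense strand of the longest annotated 3'UTR of each member, and all matches in members are printed here to show where such letters lie in the transcripts compared. Each line gives 24 bases, 5′ to 3′, with the hexamer in capitals.
Vldlr site 1: aaatttgtaACTAATtttgtacgt
Vldlr site 2: gatatgctgACTAACagagattgc
Vldlr site 3: gaggacaaaACTAATtctttgagg
Lrp8 site 1: tgctgagtgACTAACatgatgcac
Lrp8 site 2: tggcagcagACTAATatctaaagt
Lrp8 site 3: attgaaggcACTAACagaaacgac
Dab1 site 1: aaaagtcaaACTAACcttgagatg

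The hexamers of Vldlr lie at chr19:27249641-27249646, chr19:27251229-27251234 and chr19:27251723-27251728, in a 3'UTR of 5091 bases. Those of Lrp8 lie at chr4:107872652-107872657, chr4:107874152-107874157 and chr4:107875106-107875111, in a 3'UTR of 4529 bases. The single match of Dab1 lies at chr4:104743414-104743419, in a 3'UTR of 3347 bases. The 3'UTR of Reln, 1019 bases long, held no match of either hexamer. Of 10819 tested genes with a 3'UTR of at least 50 bases, 36.2% held at least 1 match. Longer 3'UTRs hold more matches, so each member was set beside genes of similar 3'UTR length (80% to 125% of its own). Among genes like Vldlr in length 76.8% held a match and 26.3% held at least 3, and among genes like Lrp8 the shares were 72.9% and 22.3%. For lengths like that of Dab1 64.8% held a match, and for lengths like that of Reln 26.2% did. The presence of a match was thus common at the lengths of Vldlr, Lrp8 and Dab1, and its absence was common at the length of Reln. The 3'UTR of Qk itself held 5 matches in 7014 bases.

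**Figure D1:**
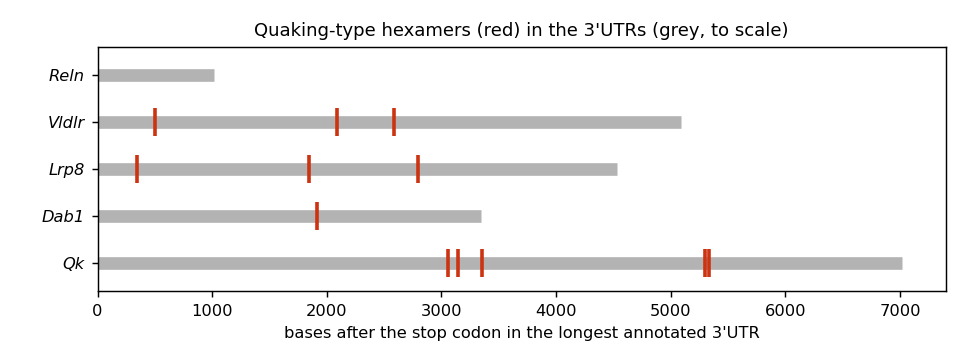
Positions of the hexamers (red ticks) along the longest annotated 3'UTR (grey bars, to scale) of Reln, Vldlr, Lrp8, Dab1 and Qk, with bases after the stop codon on the x axis. Vldlr and Lrp8 hold 3 matches each, Dab1 holds 1, Qk holds 5 and Reln holds none.

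Reln, the ligand, was at 7.77, 8.54 and 13.8 RPKM in the siNC libraries and at 1.33, 0.946 and 1.23 RPKM in the siQk libraries. The ranges lay far apart, and siNC replicate 3 held the most Reln of the 6 libraries. The mean was 10.02 ± 3.26 RPKM in siNC and 1.17 ± 0.200 RPKM in siQk (SD, n = 3), so that siQk held 11.7% of the siNC level. These values rest on 8717 to 35056 tags in siNC and on 1509 to 3623 tags in siQk, so counting error is small beside the spread between libraries. On the log2 scale after TMM normalization Reln was lower by a fitted value of -3.24, which is 9.43-fold. Since Reln was chosen for this difference, its place among all genes is a property of the choice: it had the 13th lowest log2 fold change of the 12505 genes tested, and the 4th lowest of the 10039 genes with an average logCPM over 3. Ordered by mean RPKM, Reln stood at percentile 49.3 of the tested genes in siNC and at percentile 10.04 in siQk.

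The siQk libraries were not ordered alike by the Qk they kept and by Reln. siQk replicate 2 kept the most Qk, 76.6 RPKM, and held the least Reln, 0.946 RPKM. siQk replicate 3 kept the least Qk, 36.2 RPKM, and held 1.23 RPKM of Reln. Within siNC, replicate 3 had the lowest Qk and the highest Reln. With 3 libraries a group, no relation within a group can be tested.

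Vldlr, the receptor that also binds triglyceride-rich lipoproteins, was at 33.8, 38.7 and 29.3 RPKM in siNC and at 30.2, 22.8 and 34.7 RPKM in siQk. The groups overlapped, and the lowest value was that of siQk replicate 2. The means were 33.9 ± 4.68 and 29.2 ± 6.01 RPKM (SD, n = 3). Vldlr was not called changed, with a log2 fold change of -0.37 (SE 0.18, edgeR FDR = 0.150). It remained the member with the highest RPKM in every one of the 6 libraries.

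Lrp8, the receptor that in neurons also takes part in synaptic function, was at 10.8, 9.37 and 7.07 RPKM in siNC and at 15.5, 13.9 and 15.4 RPKM in siQk. Every siQk value was above every siNC value, as was the case in 1 direction or the other for 58.3% of tested genes. The means were 9.10 ± 1.90 and 14.9 ± 0.869 RPKM (SD, n = 3). The log2 fold change was 0.56 (SE 0.18), and with an edgeR P of 0.0172 (FDR = 0.0473) Lrp8 missed the P cutoff and was not called. The call depended on the settings: without siNC replicate 1 the log2 fold change was 0.75 and Lrp8 was called (FDR = 0.0160), and over all alternatives the FDR ran from 0.00829 to 0.128.

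Dab1, the adaptor that carries the signal inward, was at 8.75, 12.7 and 9.16 RPKM in siNC and at 15.5, 18.2 and 18.4 RPKM in siQk. The ranges did not overlap, as was the case for 58.3% of tested genes. Dab1 rose from 10.2 ± 2.18 to 17.4 ± 1.61 RPKM (SD, n = 3). The log2 fold change was 0.62 (SE 0.15, edgeR FDR = 0.0184), and Dab1 was the only one of the 3 tested members to be called. Of all tested genes 13.8% were called higher. The call was lost when siNC replicate 1 (log2 fold change 0.55, FDR = 0.0543), siNC replicate 3 (0.52, FDR = 0.0402), siQk replicate 2 (0.59, FDR = 0.0614) or siQk replicate 3 (0.57, FDR = 0.0570) was left out, while the direction stayed.

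**Figure D2:**
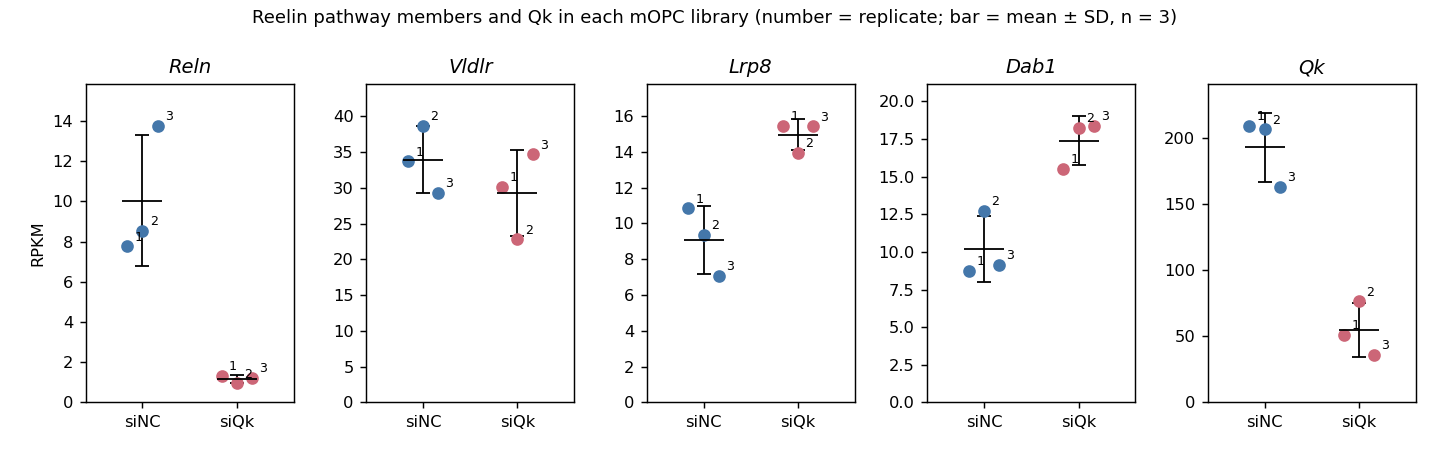
RPKM of Reln, Vldlr, Lrp8, Dab1 and Qk in each library (points, numbered by replicate), with the mean ± SD of 3 libraries per group and a separate linear y axis from 0 for each gene. Reln and Qk lie lower in all siQk libraries, Lrp8 and Dab1 lie higher, and the groups overlap for Vldlr, between 29.3 and 34.7 RPKM.

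The RPKM values are not corrected by the TMM factors, which were 0.899 to 0.987 in siNC and 1.04 to 1.07 in siQk, whereas the log2 fold changes are. A gene with the same TMM-scaled level in both groups therefore has a higher RPKM in siQk. With library sizes alone as the scale, the median over the tested genes moved from 0.01 to 0.16 on the log2 scale.

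In siNC the order of the mean RPKM was Vldlr, Dab1, Reln and Lrp8, of which the last 3, from 9.10 to 10.2 RPKM, lay within 1 SD of each other. In siQk the order was Vldlr, Dab1, Lrp8 and Reln. There Dab1 and Lrp8 had adjoining ranges, 15.5 to 18.4 and 13.9 to 15.5 RPKM, while Reln lay below all of them. Levels between genes depend on the length used. Per kilobase of the longest GENCODE M21 transcript, which is 11699 bases for Reln and 6627 for Lrp8, the mean level of Reln in siNC was 16.5 ± 5.37 on the RPKM scale, that of Lrp8 13.7 ± 2.86 and that of Dab1 11.4 ± 2.44. By that length Reln stood above Dab1 in mean, with overlapping spreads.

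A ratio of 2 genes within a library does not depend on the scale of the library. The ratio of Vldlr to Lrp8 RPKM was 3.11, 4.13 and 4.15 in siNC and 1.95, 1.64 and 2.25 in siQk. All siQk ratios were lower, and the mean went from 3.80 ± 0.593 to 1.94 ± 0.307 (SD, n = 3), a difference of -0.96 in mean log2 ratio. The exact two-sided permutation test gave p = 0.1, the smallest that 3 against 3 libraries allow. The summed RPKM of both receptors ranged from 36.4 to 48.1 in siNC and from 36.7 to 50.2 in siQk, so the ranges overlapped while the proportion differed. Dab1 relative to Vldlr was 0.259, 0.329 and 0.312 in siNC and 0.515, 0.800 and 0.529 in siQk, with a difference of 1.011 in mean log2 ratio and p = 0.1 in the exact test. Dab1 relative to Lrp8 was 0.807, 1.36 and 1.29 in siNC and 1.004, 1.31 and 1.19 in siQk. Those ranges overlapped, and the exact test gave p = 0.9. The ligand relative to its receptors is given as a description: Reln was at 0.221 to 0.469 of Vldlr in siNC and at 0.0355 to 0.0442 in siQk, and at 0.716 to 1.94 of Lrp8 in siNC and at 0.0679 to 0.0862 in siQk.

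The other genes of the pathway were taken from 7 lists ordered by role, with the members left out. Of 56 genes, 54 were tested, of which 12 were lower, 4 were higher and 38 were not called, which is 29.6% called beside 31.0% of all genes. Their median log2 fold change was -0.07, beside 0.01 for all genes tested. In this fit the share called was thus near that of all genes. Without siNC replicate 2 the count was 25, which is 46.3% beside 28.6% of all genes tested. It was 29 with DESeq2, 53.7% beside 39.1%, and 26 with edgeR's likelihood ratio test, 48.1% beside 34.4%. The split was 11 lower and 10 higher when library size alone set the scale.

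Of the 4 tested proteases of the ligand list, 2 fell and 2 were not called, where 17.2% of all tested genes were called lower. Adamts4, a secreted metalloproteinase that can cleave reelin, was at 62.3, 58.5 and 33.2 RPKM in siNC and at 17.6, 10.9 and 22.7 RPKM in siQk (log2 fold change -1.75, SE 0.35, edgeR FDR = 0.0101). Plat, the tissue plasminogen activator, fell from 61.4 ± 2.44 to 29.0 ± 1.97 RPKM (log2 fold change -1.23, SE 0.07, edgeR FDR = 0.000375). Adamts3 and Adamts5 ranged from 0.458 to 1.98 RPKM, at log2 fold changes of -0.39 and 0.20, and Adamts2 was too low to be tested.

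Among 6 co-receptors, 1 rose and 1 fell, where 31.0% of all tested genes were called in either direction. Efnb2, an ephrin ligand, rose from 2.39 ± 0.482 to 3.80 ± 0.415 RPKM (log2 fold change 0.52, edgeR FDR = 0.0321). Itgb1, the integrin beta chain that pairs with many alpha chains, fell from 222 ± 23.9 to 161 ± 15.7 RPKM (log2 fold change -0.62, edgeR FDR = 0.00465). Its partner in binding reelin, Itga3, was below 1 RPKM in every library, with means of 0.188 ± 0.121 RPKM (siNC) and 0.543 ± 0.0439 RPKM (siQk). Its ranges did not overlap, as was the case for 58.3% of tested genes. Its log2 fold change of 1.36 (SE 0.41, edgeR FDR = 0.0397) was the highest of the tested pathway genes, but it missed the P cutoff. Efnb1, Efnb3 and Nrp1 were not called, with log2 fold changes from 0.10 to 0.59.

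Of 8 tested genes for other ligands of the receptors and for receptor turnover, 3 fell and none rose. These 37.5% called stand beside 31.0% of all tested genes, 17.2% lower and 13.8% higher. Apoe, an apolipoprotein that VLDLR and LRP8 bind, fell from 46.5 ± 12.3 to 15.3 ± 2.26 RPKM (log2 fold change -1.76, edgeR FDR = 0.00267). Clu, the apolipoprotein clusterin, fell from 70.8 ± 11.7 to 30.7 ± 7.41 RPKM (log2 fold change -1.35, edgeR FDR = 0.00318). Snx17, a sorting nexin that returns receptors of this family to the surface, was lower by less (log2 fold change -0.30, edgeR FDR = 0.0306). Mylip, the ubiquitin ligase that degrades VLDLR and LRP8, was at 0.669, 1.55 and 1.13 RPKM in siNC and at 1.99, 2.51 and 2.10 RPKM in siQk and missed the call (log2 fold change 0.83, edgeR FDR = 0.0509). Lrpap1, the chaperone of the family, differed little (log2 fold change 0.04, edgeR FDR = 0.687), and Spon1, Thbs1 and Sepp1 were not called either.

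Downstream of the receptors, 4 of the 10 genes of the kinase and CRK branch fell and none rose. These 40% called stand beside 31.0% of all tested genes, 17.2% lower and 13.8% higher. Yes1, a Src family kinase, fell from 12.9 ± 1.22 to 6.15 ± 0.0859 RPKM (log2 fold change -1.22, edgeR FDR = 0.000399). Crkl, a CRK adaptor, had a log2 fold change of -0.60 (edgeR FDR = 0.00471). The small GTPases Rap1a and Rap1b, which act after CRK, fell by 1.36 and by 0.48 on the log2 scale (edgeR FDR = 0.00221 and 0.00315). Fyn, the main kinase of DAB1, was at 399, 227 and 280 RPKM in siNC and at 194, 204 and 208 RPKM in siQk. Its ranges did not overlap, as was the case for 58.3% of tested genes. However, siNC replicate 1 stood far above the other siNC libraries and Fyn was not called (log2 fold change -0.74, edgeR FDR = 0.0377). Src was not called at a log2 fold change of 0.21, and neither were Lyn, Crk, Rapgef1 and Nck2.

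None of the 6 genes for turnover of DAB1 (Cul5, Rnf7, Socs6, Socs7, Ube2f and Arih2) was called, where 31.0% of all tested genes were. Their log2 fold changes ran from -0.21 to 0.15. Of 10 genes of the PI3K and cytoskeleton branch, 1 rose, 1 fell and 8 were not called, which is 20% called beside 31.0% of all tested genes. Pik3r1, a regulatory subunit of PI3K, rose from 23.0 ± 5.07 to 43.4 ± 4.72 RPKM (log2 fold change 0.76, edgeR FDR = 0.0219). Mtap1b, a microtubule-associated protein that is phosphorylated upon reelin signalling, fell from 29.1 ± 8.81 to 11.98 ± 2.38 RPKM (log2 fold change -1.44, edgeR FDR = 0.00757). Of 10 genes of the Lis1 and Cdk5 list, 2 rose and 1 fell, which is 30% called beside 31.0% of all tested genes. Pafah1b3, a catalytic subunit of the enzyme complex that LIS1 belongs to, had a log2 fold change of 0.85 (edgeR FDR = 0.00473). Cdk5r1, the activator p35 of CDK5, had one of 0.76 (edgeR FDR = 0.00192), while the kinase Cdk5 had one of -0.49 (edgeR FDR = 0.00541). Pafah1b1, which encodes LIS1 itself, stood at 65.2 ± 3.79 and 64.6 ± 1.90 RPKM and was not called (edgeR FDR = 0.0863).

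**Figure D3:**
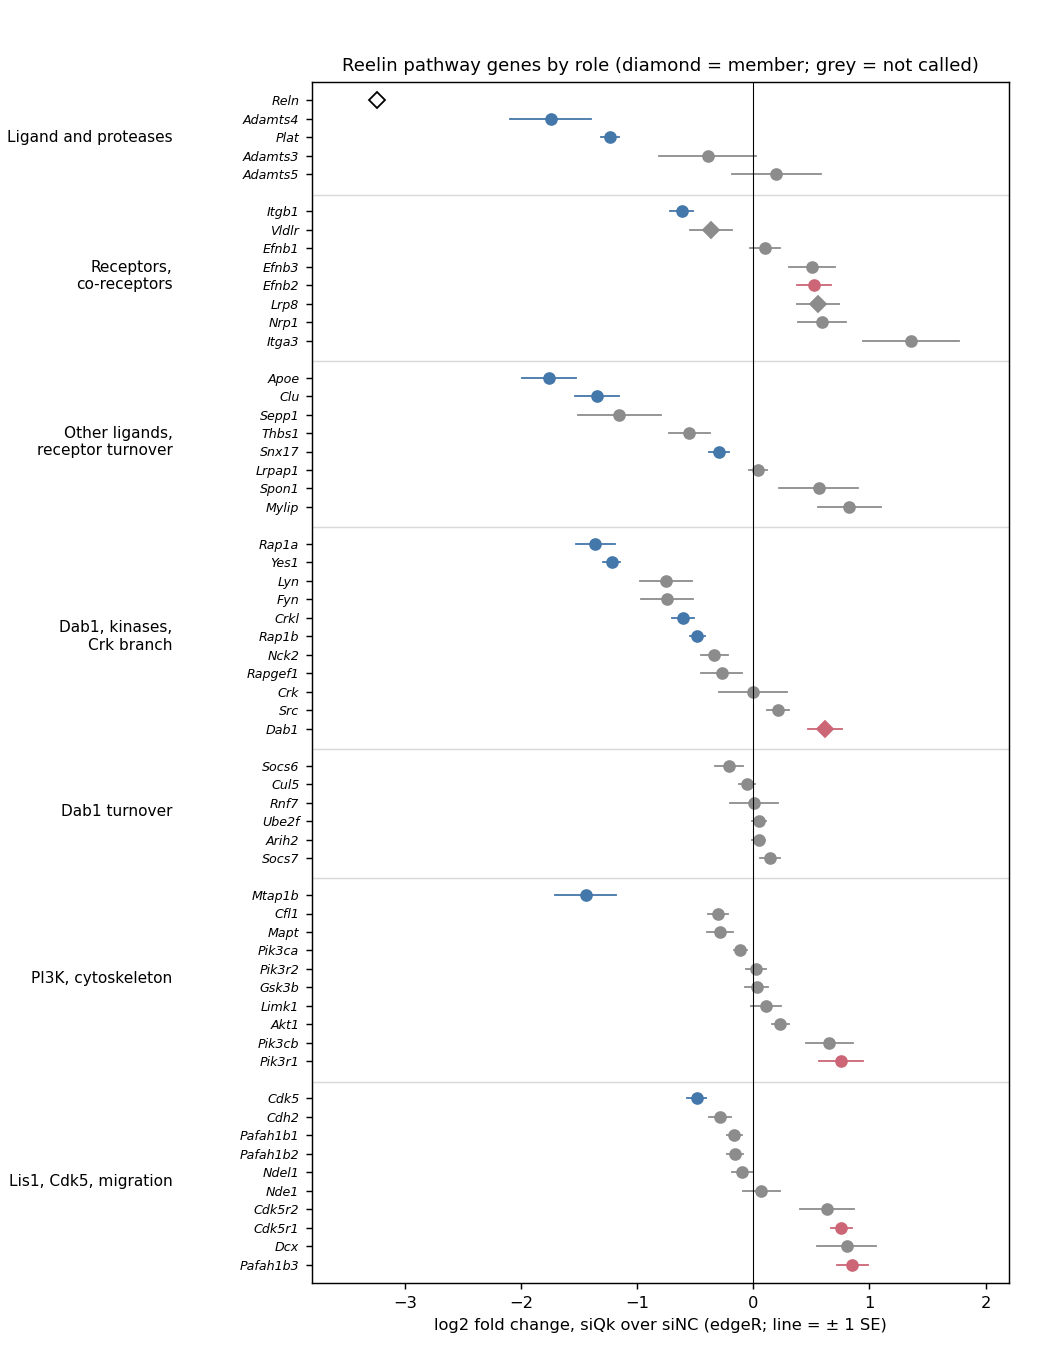
Log2 fold change (siQk over siNC, edgeR) of each tested pathway gene by role, with lines of 1 SE. Diamonds are Reln (open, no SE or test), Vldlr, Lrp8 and Dab1, blue marks genes called lower, red genes called higher and grey genes not called. Reln lies at -3.24, and no gene of the Dab1 turnover list lies beyond 0.25 from 0.

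Both receptors were set beside 11 other genes of the lipoprotein receptor family. In siNC, Vldlr had the second highest mean RPKM of these 13 genes, after Lrp1 (36.6 ± 7.11 RPKM), with overlapping ranges, and Lrp8 stood at 9.10 RPKM, above Lrp1b, Lrp5 and Lrp2 only. Of the 11 others, 3 rose, 1 fell and 7 were not called, with a median log2 fold change of -0.09, and the 36.4% called were near the 31.0% of all genes. Lrp4, a receptor best known from the neuromuscular junction, fell from 21.2 ± 2.40 to 9.87 ± 0.543 RPKM (log2 fold change -1.25, SE 0.11, edgeR FDR = 0.000869). Lrp3 rose from 17.2 ± 2.35 to 25.7 ± 1.94 RPKM (log2 fold change 0.43) and Lrp5, a WNT co-receptor, from 2.31 ± 0.232 to 3.31 ± 0.155 RPKM (log2 fold change 0.37). Lrp2, the third that rose, was at most 0.301 RPKM in any library. Lrp1 (36.6 and 36.3 RPKM) was not called.

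**Figure D4:**
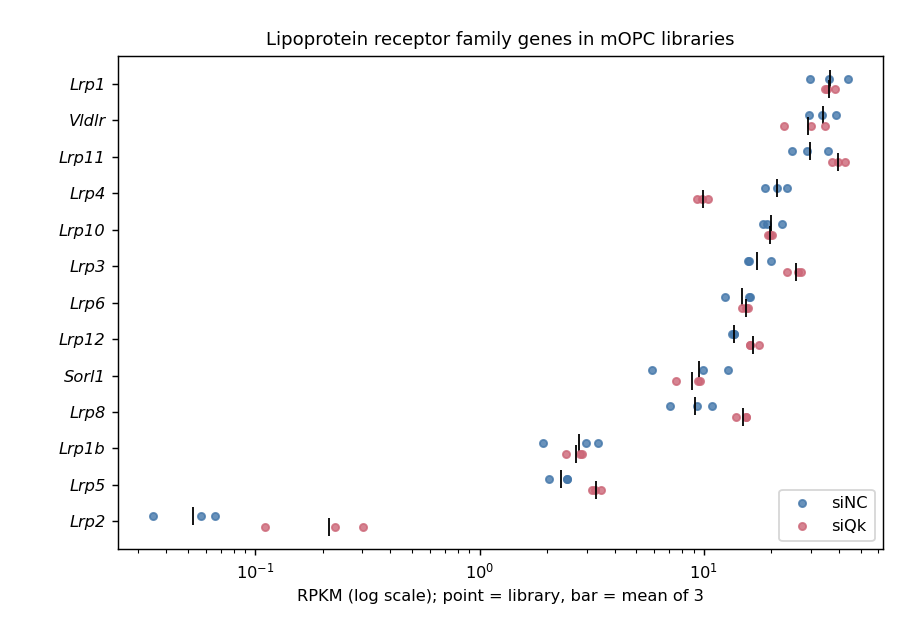
RPKM (log axis) of 13 lipoprotein receptor family genes in each library, with siNC in blue, siQk in red and black bars for the means of 3 libraries, ordered by the siNC mean. Vldlr lies next to Lrp1 near the top in siNC, Lrp8 shifts from 9.10 to 14.9 RPKM, and Lrp4 is the gene that was called lower.

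Dab1 was set beside other adaptors with a PTB domain, the fold that binds the NPxY motif of receptor tails. Of 11 such genes 10 were tested, of which none rose, 1 fell and 9 were not called, with a median log2 fold change of -0.21. These 10% called stand beside 31.0% of all tested genes. The gene that fell was Apba2, which encodes an adaptor of neurons that binds the amyloid precursor protein: it went from 176 ± 11.8 to 106 ± 1.70 RPKM (log2 fold change -0.88, edgeR FDR = 0.000506). Dab2, the paralog of Dab1, had a mean of 0.907 RPKM in siNC and 0.826 RPKM in siQk and was not called (log2 fold change -0.29, edgeR FDR = 0.565).

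Reelin is known from Cajal-Retzius cells and some interneurons, so their markers were looked up beside Reln. Of 8 Cajal-Retzius markers, 6 were below 1 RPKM in every library, and Nhlh2 was listed at 0 in all. The markers Trp73 and Lhx5 were at most 0.00569 and 0.00277 RPKM. The list summed to 7.77 to 13.2 RPKM in siNC and to 12.2 to 13.5 RPKM in siQk, mostly through Ebf3 (5.36 to 11.1 RPKM). Of its 3 tested genes 1, A930038C07Rik, was lower (log2 fold change -1.07), where 17.2% of all tested genes were called lower. Of 9 GABAergic interneuron markers, 8 were below 1 RPKM in every library, and the list summed to 2.69 to 2.88 RPKM in siNC and to 3.27 to 3.85 RPKM in siQk, mostly through Dlx2 (1.66 to 2.62 RPKM). Of its 4 tested genes 1 was called, where 31.0% of all tested genes were. That gene was Gad2, a GABA-synthesizing enzyme, which was lower (0.205 to 0.324 RPKM in siNC, 0.0464 to 0.0863 RPKM in siQk, log2 fold change -2.19, edgeR FDR = 0.00247). The other 3, Gad1, Dlx1 and Dlx2, went the other way without being called, with log2 fold changes of 0.45, 0.45 and 0.22. The part of cells of these types in the values of Reln was not tested.

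Of the other marker lists, the astrocyte list had a lower sum in every siQk library, as the myelin list did. The 8 astrocyte markers summed to 180 to 260 RPKM in siNC and to 132 to 152 RPKM in siQk. Of the 6 tested, 4 were called lower, where 17.2% of all tested genes were. These were Gfap (log2 fold change -2.95), Aldh1l1 (-2.21), Slc1a3 (-1.38) and Slc1a2 (-1.06). Aldoc, the highest of the list in every library (82.6 to 104 RPKM in siNC, 100 to 118 RPKM in siQk), was not called (log2 fold change 0.03). Aqp4 was not called either (log2 fold change -0.40), and the astrocyte connexins Gja1 and Gjb6 were at 0.0130 RPKM or less in every library. The 10 neuron markers summed to 203 to 284 RPKM in siNC and to 217 to 266 RPKM in siQk, so that the ranges overlapped. Of the 9 tested, 3 were called higher, where 13.8% of all tested genes were. These were Snap25 (log2 fold change 2.64), Nefl (1.61) and Mtap2 (0.57). The other 6 were not called, and among them Elavl3, Tubb3 and Rbfox3 went the other way (-0.61, -0.57 and -0.57). The 6 microglia markers summed to 0.721 to 3.32 RPKM in siNC and to 0.308 to 0.407 RPKM in siQk. In siNC that sum came mostly through P2ry12, the only 1 of the list that was tested. P2ry12 was lower in siQk (0.669 to 3.20 RPKM in siNC, 0.152 to 0.287 RPKM in siQk, log2 fold change -3.16). Each of the 10 fibroblast and vascular markers was below 1 RPKM and untested. The part of the astrocyte and myelin lists in the values of Reln, its receptors and Dab1 was not tested.

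The genes whose pattern was most like each member were found by the Euclidean distance of log2 CPM, centred on its mean over the 6 libraries, among 11036 genes with an average logCPM over 2. For Reln they were Gfap (distance 0.56), an intermediate filament of astrocytes, Tgfbi (0.58), a secreted matrix protein, Fgl2 (0.67), a fibrinogen-like protein, Emp3 (0.83), a membrane protein, and Col4a5 (0.86), a chain of basement membrane collagen. Gfap was at 51.4, 54.6 and 101 RPKM in siNC and at 9.16, 9.08 and 11.3 RPKM in siQk, with siNC replicate 3 highest, as it was for Reln. That library was also highest for Tgfbi (5.05 RPKM), Fgl2 (6.10 RPKM) and Emp3 (10.1 RPKM). Col4a5 differed, with 44.3 RPKM in siNC replicate 2 and 44.1 RPKM in siNC replicate 3. These genes share the libraries with Reln and were found by the same difference that chose it.

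**Figure D5:**
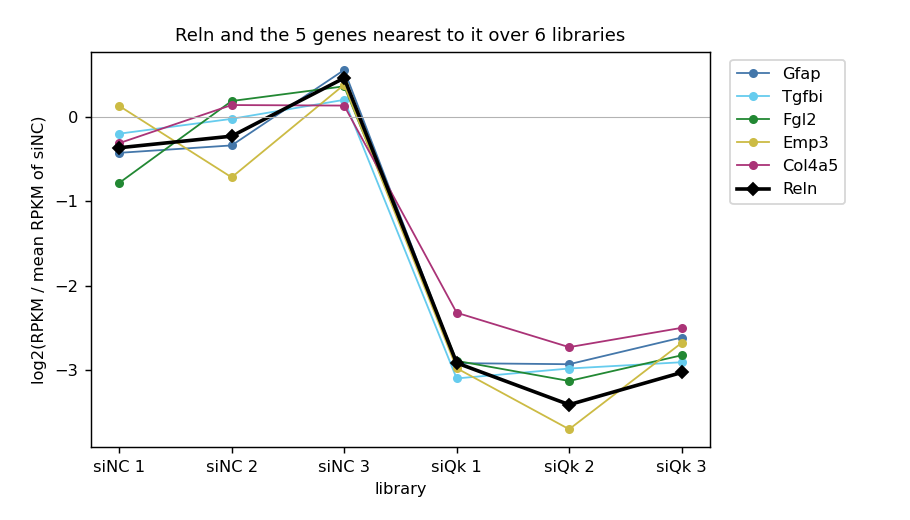
Log2 of RPKM over the siNC mean in the 6 libraries for Reln (black) and the 5 genes at the smallest distance from it. Reln, Gfap, Tgfbi, Fgl2 and Emp3 are highest in siNC replicate 3, and all 6 lines lie below -2 in the siQk libraries.

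For Vldlr the nearest were Fgd3 (distance 0.13), Lin7a (0.16) and Slc4a8 (0.17), for Lrp8 Prkaa1 (0.23), Sox11 (0.23) and Fgf12 (0.24), and for Dab1 Tiam1 (0.15), Aoc2 (0.19) and Agap2 (0.19). Ranked by Pearson correlation instead, 2 of the 3 genes of Vldlr were again among its nearest, and none of those of Reln, Lrp8 or Dab1 was. Correlation does not weigh the size of a difference: the 5 genes it placed first for Reln had log2 fold changes from -0.79 to -0.21. The 5 genes nearest to Reln by distance ranked 18th to 149th of 11036 by correlation.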

How the data were processed

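Paired-end reads of the 6 mOPC libraries had been mapped by the authors to mm10 (OLego) and genes quantified (Quantas), with versions and gene annotation not given in the sources used here. For each gene the authors deposited the tag number, an expected count that can carry decimals and is not normalized, the exon length, and the RPKM. The sources used here do not say if a tag stands for 1 read or for a pair. RPKM recomputed from the tag numbers and exon lengths equalled the deposited values.

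Tag numbers were rounded to whole numbers. Libraries of 1 group differed by far more than sampling noise (chi-square per degree of freedom of at least 36.3), and the labels call them biological replicates. Counts were fitted in R 4.3.3 with edgeR 4.0.16 and limma 3.58.1 (quasi-likelihood F-test, TMM factors) on 12505 genes with an average logCPM over 0 and the group as the only term, and the FDR was the Benjamini-Hochberg adjustment over them. SDs are over 3 libraries. Single values were compared with exact permutation tests (scipy 1.17.1), for which 3 against 3 cannot go below 0.1.

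The genes named are Qk, the members, the genes of the lists described and, by distance, the 5 nearest to Reln and the 3 nearest to each other member. Sepp1, Mtap1b, Mtap2 and A930038C07Rik are older symbols of Selenop, Map1b, Map2 and Ndnf. Some genes that the lists held are not reported here and were left out of their counts. Rn45s and Gm10475 are outside this rule and were named after their values were seen. The members and all lists were chosen with earlier results of these data known. 3'UTRs, lengths and sequences came from GENCODE M21 (GRCm38, the assembly of mm10). Alternatives were DESeq2 1.42.0, edgeR's likelihood ratio test, other normalizations and filters, the replicate number as a block and each library left out. Thinning to the smallest library and the transcript length were added after the data had been seen.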

Additional observations from a re-analysis of the deposited data

How the results depend on the processing

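Across 15 alternatives the log2 fold change of Reln stayed between -3.36 and -2.98, and that of Vldlr stayed between -0.52 and -0.21 and was never called. Lrp8 was called with upper quartile scaling (0.62), library size only (0.72), DESeq2 (0.55), the likelihood ratio test (0.56) and no filter (0.58). With 1 library left out the values ran from 0.38 to 0.75 for Lrp8 and from 0.52 to 0.79 for Dab1, and Dab1 lost its call in 4 of 6 cases. The pathway count, 16, was 29 with DESeq2, 26 with the likelihood ratio test and 13 to 25 with 1 library left out. All called genes numbered 2478 to 3704 with 1 library left out, against 3879, and were lowest without siQk replicate 1. Of all calls 55.4% were lower in siQk, 44.4% with upper quartile scaling and 31.4% with library size only. Same-numbered siNC and siQk libraries did not deviate together (r of -0.05, -0.15 and -0.34). With 3 libraries a group this cannot decide if same-numbered cultures were prepared together, which the sources used here do not state. With the replicate number as a block the log2 fold changes were -3.22 for Reln, -0.38 for Vldlr, 0.58 for Lrp8 and 0.63 for Dab1, 17 pathway genes and 2796 genes in all were called, and no member gained or lost its call. Per longest transcript, levels in siNC and siQk were 16.5 and 1.93 for Reln and 13.7 and 22.5 for Lrp8, and 19.4 for Dab1 in siQk. The causes of these shifts were not tested. Thinning to the smallest library changed no member's call. Each member had at least 1509 tags in every library.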
